A study of Mus musculus with 18 samples.

Results

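Nucleoporins are the proteins that build the nuclear pore complex, and their mRNAs were followed here in mouse oocytes with and without VPS34, at the germinal vesicle (GV) stage and at metaphase II (MII). The members were taken by name: every gene symbol that starts with Nup followed by a digit or an l, plus Tpr, Pom121, Ndc1, Rae1, Aaas, Seh1l, Sec13 and Ranbp2. This gave 31 of the 55291 genes in the count table, and the rule used no measured value. All 31 had a gene model in GENCODE release M21, on build GRCm38, which is the same assembly as mm10.

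The oocytes came from 5-week-old females and fell into 4 groups of 3 libraries each, with 5 oocytes in a library. Conditional knockout (cKO) MII oocytes and cKO GV oocytes carried floxed Vps34 (gene symbol Pik3c3) and the Zp3-Cre transgene, while control MII oocytes and control GV oocytes carried floxed Vps34 without Cre. VPS34 is the class III phosphatidylinositol 3-kinase, which makes the lipid PI3P on endosomes and autophagosomes, and Zp3-Cre acts in growing oocytes, so the deletion is limited to the oocyte and happens after its growth has begun. GV oocytes were taken 46 h after PMSG, which stimulates follicle growth, and MII oocytes 14 h after hCG, which triggers ovulation, and their RNA was spiked with ERCC control RNAs and amplified by Smart-seq2. The labels do not tie libraries to single females, so p-values measure the spread between libraries. The study's 2-cell embryos, another 6 samples, were left out.

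The nuclear pore complex spans the nuclear envelope and carries the traffic of proteins and RNA between nucleus and cytoplasm. Its scaffold consists of Y-shaped subcomplexes in the outer rings and of an inner ring, held in the membrane by transmembrane nucleoporins, while filaments face the cytoplasm, a basket faces the nucleus, and phenylalanine-glycine (FG) repeat proteins fill the channel. When an oocyte resumes meiosis the envelope breaks down and the pores come apart, an MII oocyte has no nucleus, and pores are built again in the pronuclei after fertilisation. Fully grown oocytes hardly transcribe, and their stored messages are known to be kept, cleared or given longer or shorter poly(A) tails during maturation. Smart-seq2 primes its cDNA on the poly(A) tail, and a count therefore depends on the number of mRNA molecules and on how well their tails are primed, which cannot be told apart here.

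The libraries held between 2609783 and 4696626 gene counts. Pik3c3 itself averaged 3.67 ± 1.52 CPM (counts scaled to a library total of 1000000 gene counts) in cKO MII against 16.4 ± 5.44 CPM in control MII oocytes, and 1.96 ± 0.62 CPM in cKO GV against 30.01 ± 4.99 CPM in control GV oocytes (SD, n = 3 each). The difference passed at GV (log2 fold change -3.97, SE 0.32, adjusted p = 0.000151) and not at MII (-2.19, SE 0.39, adjusted p = 0.530) in edgeR's quasi-likelihood test. It was lower in all cKO libraries. All 10 oocyte markers, among them Zp3, Gdf9 and Mos, were detected in every library. The 20 cumulus and granulosa cell markers summed to 939-1783 CPM in cKO MII, 347-601 CPM in cKO GV, 1220-1554 CPM in control MII and 424-526 CPM in control GV oocytes, mostly from Serpine2. At 0 were 4 to 6 of them in cKO MII, 6 to 8 in cKO GV, 2 to 5 in control MII and 4 to 5 in control GV libraries. Ptx3, Tnfaip6, Areg and Ereg were at 0 in all GV libraries, and Areg and Ereg in most MII libraries too. Amh was at 0 in all MII libraries. In contrast, Tnfaip6 (16.75-194.3 CPM), Ptx3 (1.513-43.3 CPM), Ptgs2 (4.073-59.39 CPM) and Fst (8.961-118.4 CPM) had counts in every MII library. Inha, Cyp19a1, Nr5a2 and Kitl had counts in every GV library. The 11 blood and immune cell markers summed to 5.13-11.05 CPM in MII and 47.9-80.7 CPM in GV libraries, mostly from C1qb. Whether these cells contributed to any nucleoporin count was not tested. ERCC spike-ins took 29.3-39.9% of all counts in MII and 7.09-18.7% in GV libraries.

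What counts as higher or lower between the stages depends on the scaling. Scaled on the genes themselves (edgeR's TMM), the median log2 fold change of all genes, MII against GV, was -0.04 in cKO and 0.01 in control oocytes. Scaled on the spike-ins, the median of all genes was -2.37 in cKO and -1.72 in control oocytes. Log2 fold changes below are on the TMM scale unless the spike-in scale is named, and "rose" or "fell" means relative to the other genes of the library, at an adjusted p under 0.05 over all genes tested. Each library was made from 5 oocytes per its label, whereas for other cell types fewer cells and less RNA per cell cannot be told apart in these bulk libraries.

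The 3′ ends of members that changed between the stages in both genotypes are shown first, because the fate of a stored oocyte mRNA is commonly linked to its 3′ untranslated region (UTR). The cytoplasmic polyadenylation element, searched as TTTTAT or TTTTAAT, is the site through which CPEB proteins lengthen poly(A) tails during maturation, and AATAAA or ATTAAA is the signal for cleavage and polyadenylation. Each line below is 30 bases of the annotated 3′UTR on GRCm38, 5′ to 3′ on the transcribed strand, with these motifs in capitals. Members that rose in both genotypes on the TMM scale came with and without the element. The first 4 lines are those that hold it, at chr2:80658873-80658902 (plus strand), chr5:92415542-92415571 (minus strand), chr10:88178300-88178329 (plus strand) and chr7:102119468-102119497 (minus strand).
Nup35: tccaAATAAActttgtcaatTTTTATgtgc
Nup54: aaAATAAAttgttaatttgtaaTTTTATgt
Nup37: aaaaatccttatTTTTATatcaaacatact
Nup98: tTTTTATTAAAaaatatatatatatatata
In the Nup98 line the element lies 99 bases before the annotated end and shares letters with an ATTAAA. That ATTAAA is a match of letters far from the end. The Nup98 signals near the end lie 25 and 19 bases before it, outside the printed line. The next 5 lines belong to members that also rose in both genotypes and have no element in the last 100 bases, at chr13:46679905-46679934 (minus strand), chr2:90736294-90736323 (plus strand), chr11:70943102-70943131 (minus strand), chr5:24183981-24184010 (plus strand) and chr4:107416297-107416326 (plus strand). Seh1l, with one of the largest rises, and Nup107 also rose in both genotypes, have no element there and are not printed. Tpr, which rose, and Aaas, which fell, have annotated 3′UTRs of 28 and 29 bases. These are shorter than the 100 bases searched, so neither is shown or counted.
Nup153: tatattttctcATTAAAttttgaaAATAAA
Nup160: aaggtgaaaaatAATAAAaatatcctttga
Nup88: ctgttaAATAAAtttatttattcaAATAAA
Nupl2: caatgaacatccAATAAAcaatatagataa
Ndc1: aattggtagaaaAATAAAgtgacaattcct
The last 3 belong to members that fell in both genotypes, at chr2:30344231-30344260 (plus strand), chr8:123897127-123897156 (minus strand) and chr2:32052329-32052358 (plus strand), and hold a polyadenylation signal without a polyadenylation element.
Nup188: atttatacaaatATTAAAagtgctgtttat
Nup133: ctgcattgccttAATAAAaacgaggttttc
Nup214: ttttcgtctgctATTAAAgtgtttggtctg

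The element was looked for in the last 100 bases of the annotated 3′UTR, on the transcribed strand only since it acts in RNA, and TTTTAAT may overlap AATAAA by its last letters. It was present in 7 of the 25 tested nucleoporins with such a window (28%), against 1980 of 9592 genes (20.6%). Of the members that rose in both genotypes 4 of 11 held it, and of those that fell in both 0 of 3 did. Over all genes the median log2 fold change, MII against GV, was 0.52 in cKO and 0.63 in control oocytes with the element, and -0.17 in cKO and -0.14 in control oocytes without it. The same medians for nucleoporins were 0.87 and 1.34 with it, and 0.18 and 0.69 without it. The polyadenylation signal lay in the last 50 bases for 88% of the members and 79.5% of genes. These are matches of letters, the annotated 3′ ends may not be the ones used in oocytes, and no test was made.

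Levels between genes were compared per kilobase of exon. Nup35, an inner ring protein, stood first in each group, at 163 ± 14.8 CPM per kb in cKO MII, 99.1 ± 40.3 CPM per kb in cKO GV, 224 ± 39.7 CPM per kb in control MII and 99.07 ± 16.2 CPM per kb in control GV oocytes. In control GV oocytes Sec13 (66.8 ± 4.67), Rae1 (51.5 ± 5.60), Nup37 (49.5 ± 9.20) and Nup85 (48.9 ± 10.9 CPM per kb) came next, and Rae1, Nup37 and Nup85 lay within their spread of each other. At the low end, Nup205, Nup155 and Nupl2 had 1.92-1.97 CPM per kb in control GV oocytes and Nup210, a membrane glycoprotein of the pore, had 0.30. In both genotypes at MII, Nup37 moved up to the second place (132 ± 0.818 CPM per kb in cKO and 127 ± 8.06 in control), while Nup188 moved to place 23, against place 15 at GV.

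Few or no counts were found for 4 members, which entered no test. Nup210l, a relative of Nup210, had 0 counts in all MII libraries, which allows up to 0.344 CPM in cKO MII and 0.281 CPM in control MII oocytes (3 counts over the 3 libraries, counting error only), and 0 to 4 counts in GV libraries. Nup62cl had 0 to 8 counts. Nup43, a Y complex protein, and Nupl1, the channel protein NUP58, had 1 count each, both in cKO GV library 3. Nupl1 shares 48.8% of its exon bases with the model Gm49336, which held 2209 counts, whereas no other model overlaps the exons of Nup43, and the part of read assignment in these low values was not tested.

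**Figure D1:**
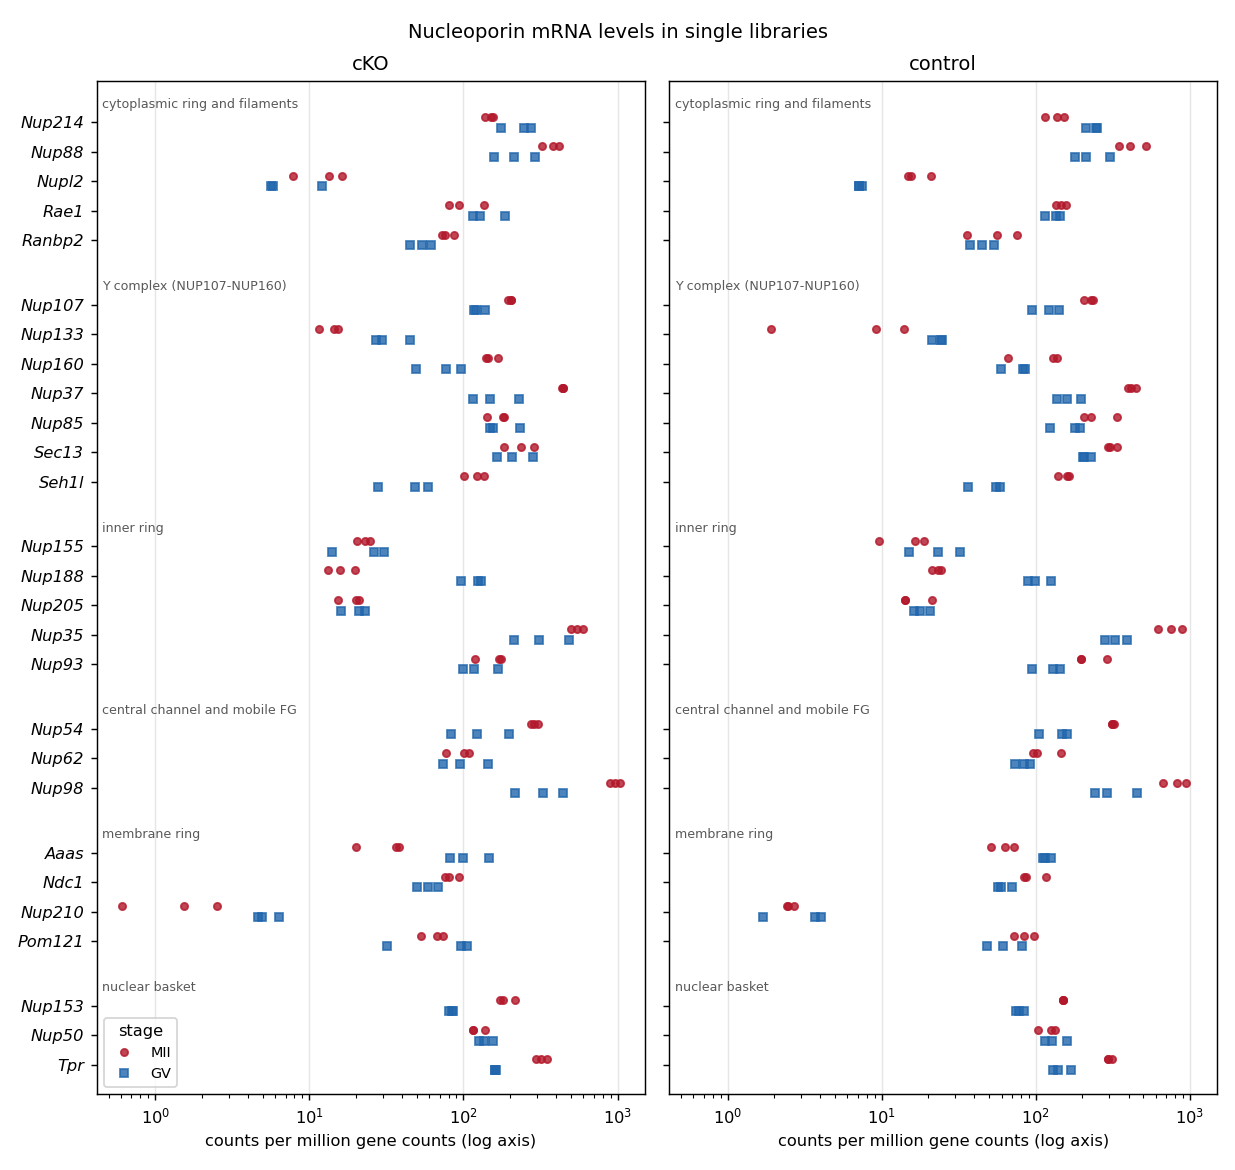
Level of each nucleoporin in CPM (log axis) in cKO libraries (left) and control libraries (right), with MII as red circles and GV as blue squares, 3 libraries each and members ordered by their place in the pore. Nup188, Aaas, Nup133 and Nup214 lie lower at MII, and Nup37, Nup98, Tpr and Nup153 lie higher at MII as a share of gene counts, which is not so on the spike-in scale.

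As a share of gene counts, more nucleoporin mRNAs were higher than lower in MII oocytes compared with GV oocytes, a direction that the spike-in scale turns round. In cKO oocytes 18 of 27 tested members passed, 13 higher and 5 lower at MII (of all genes tested, 29.5% were higher and 34% lower), and in control oocytes 20 of 27 passed, 16 higher and 4 lower (all genes 30.1% higher and 33.8% lower), in edgeR's quasi-likelihood test, with p adjusted by Benjamini and Hochberg's method. The members' median log2 fold change was 0.43 in cKO and 0.69 in control oocytes on the TMM scale, and the direction flips on the spike-in scale, where it was -1.82 in cKO and -1.01 in control oocytes. Above the median of all genes lay 20 of 27 members in cKO and 19 of 27 in control oocytes on the TMM scale, and 19 of 27 in cKO and 20 of 27 in control oocytes on the spike-in scale. Summed over the 31 members, the libraries held 4919, 5076 and 4917 CPM in cKO MII, 2749, 3226 and 3988 CPM in cKO GV, 5516, 5074 and 5473 CPM in control MII, and 3520, 2813 and 3329 CPM in control GV oocytes. The stages did not overlap in either genotype. On the TMM scale both genotypes shared 12 members that rose (Seh1l, Nup37, Tpr, Nup98, Nup153, Nup107, Nup54, Nup35, Nup88, Nupl2, Ndc1 and Nup160) and 4 that fell (Nup188, Aaas, Nup133 and Nup214). The share of all genes called the same way in both genotypes is not given here, so these shared counts have no background beside them.

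**Figure D2:**
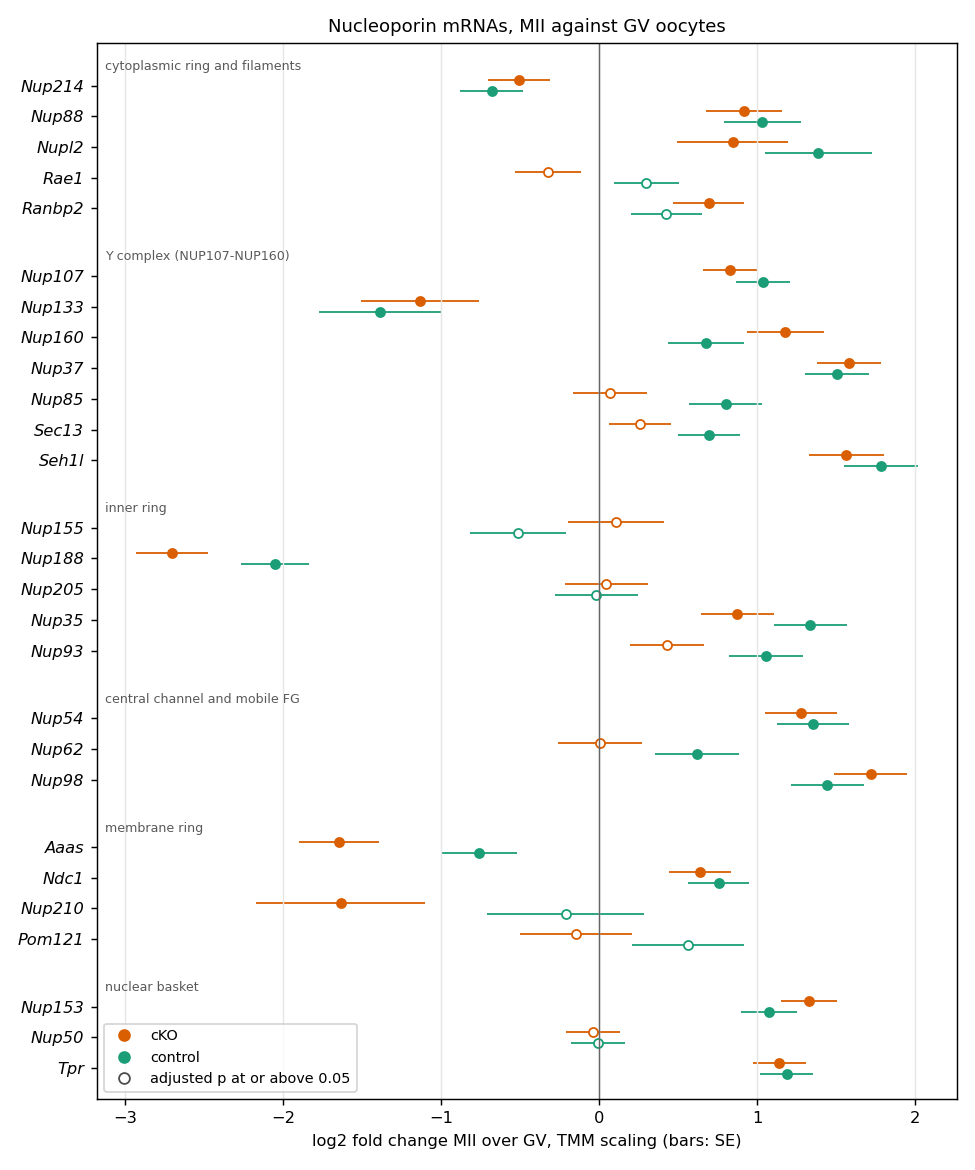
Log2 fold change of MII over GV oocytes on the TMM scale for the 27 tested nucleoporins, cKO in orange and control in green, with SE bars; open symbols did not pass the adjusted p of 0.05. Most members lie right of 0 in both genotypes, Nup188 lies farthest left at -2.71 in cKO and -2.05 in control oocytes, and on the spike-in scale all changes but that of Seh1l in control oocytes lie below 0.

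In the Y complex, the scaffold that also binds kinetochores in mitosis, 4 of 7 tested members rose and 1 fell in cKO oocytes, and 6 rose and 1 fell in control oocytes on the TMM scale. Of all genes tested, 29.5% rose and 34% fell in cKO oocytes, and 30.1% rose and 33.8% fell in control oocytes. On the spike-in scale 0 passed as higher (0.801% of all genes did in cKO and 0.56% in control oocytes), and 5 of 7 in cKO and 4 of 7 in control oocytes passed as lower (88% and 70.1% of all genes). Nup37, a small beta-propeller subunit, had 441, 436 and 440.2 CPM in cKO MII, 115, 148 and 229 CPM in cKO GV, 398, 415 and 451 CPM in control MII, and 197, 136 and 160.3 CPM in control GV oocytes. The stages were far apart in both genotypes, with a log2 fold change of 1.58 (SE 0.20, adjusted p = 2.43e-06) in cKO and 1.50 (SE 0.20, adjusted p = 4.03e-06) in control oocytes on the TMM scale, against -0.68 and -0.20 on the spike-in scale. Seh1l, a beta-propeller shared with the GATOR2 complex of amino acid sensing, had 135, 123 and 101 CPM in cKO MII, 27.7, 48.2 and 58.7 CPM in cKO GV, 164, 140.1 and 159 CPM in control MII, and 58.9, 36.2 and 54.9 CPM in control GV oocytes. Its log2 fold change was 1.56 in cKO and 1.78 in control oocytes, and on the spike-in scale -0.64 in cKO and 0.04 in control oocytes. Nup107, in the stem of the Y, rose by 0.83 (SE 0.17) in cKO and 1.04 (SE 0.17) in control oocytes on the TMM scale (-1.50 and -0.72 on the spike-in scale), and its partner at the end of the stem fell.

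That partner, Nup133, was counted at 11.5, 14.5 and 15.3 CPM in cKO MII, 27.1, 29.8 and 44.7 CPM in cKO GV, 1.91, 13.9 and 9.23 CPM in control MII, and 24.7, 24.3 and 21.3 CPM in control GV oocytes. Each MII library lay below each GV library of its genotype, and the log2 fold change was -1.13 (SE 0.37, adjusted p = 0.0131) in cKO and -1.39 (SE 0.39, adjusted p = 0.00446) in control oocytes. These are small counts, 7 reads in control MII library 1 and 30 to 48 in the cKO MII libraries. Because both genes sit in the same libraries, their ratio needs no scaling: reads of Nup133 per read of Nup107 were 0.0562-0.0786 in cKO MII, 0.233-0.324 in cKO GV, 0.00932-0.0608 in control MII and 0.15-0.257 in control GV oocytes. The stages did not overlap. This pair and those below were chosen after their values were seen and carry no test. Nup160, which binds Nup37, rose by 1.18 (SE 0.25) in cKO and 0.68 (SE 0.24) in control oocytes, whereas Sec13 and Nup85 passed in control oocytes alone, as given below.

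In the inner ring, Nup188 showed the steepest fall of all members. NUP188 is a large scaffold protein that pairs with NUP93, and its mRNA stood at 15.7, 19.7 and 13.2 CPM in cKO MII, 97.05, 125 and 130 CPM in cKO GV, 21.3, 23.2 and 24.2 CPM in control MII, and 88.6, 125 and 98.4 CPM in control GV oocytes. The groups are well apart, at -2.71 (SE 0.23, adjusted p = 1.11e-08) in cKO and -2.05 (SE 0.22, adjusted p = 2.20e-07) in control oocytes. Nup93 did not follow: it rose by 1.05 (SE 0.23, adjusted p = 0.000717) in control oocytes on the TMM scale (-0.76 on the spike-in scale) and did not pass in cKO oocytes (0.43, SE 0.23, adjusted p = 0.120). Reads of Nup188 per read of Nup93 were 0.105 ± 0.0144 in cKO MII against 0.945 ± 0.154 in cKO GV oocytes, while control MII oocytes had 0.105 ± 0.0274 against 0.899 ± 0.374 in control GV oocytes (SD, n = 3 each).

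NUP205, the paralog of NUP188 that also binds NUP93, did not pass. Its mRNA was at 21.1, 19.98 and 15.3 CPM in cKO MII, 20.8, 22.9 and 16 CPM in cKO GV, 14.2, 21.1 and 14.1 CPM in control MII, and 16.2, 20.6 and 17.7 CPM in control GV oocytes. The stages overlapped, with log2 fold changes of 0.05 (SE 0.26) in cKO and -0.02 (SE 0.26) in control oocytes on the TMM scale, close to the median gene. Nup155, which links ring and membrane, did not pass in either genotype (0.10 in cKO and -0.51 in control oocytes). Nup35, the most abundant member, had 548, 597 and 497 CPM in cKO MII, 213, 307 and 481 CPM in cKO GV, 885, 618 and 758 CPM in control MII, and 391, 282 and 328 CPM in control GV oocytes. It rose by 0.87 (SE 0.23, adjusted p = 0.00301) in cKO and 1.34 (SE 0.23, adjusted p = 6.86e-05) in control oocytes, against -1.35 and -0.41 on the spike-in scale. Its reads are uncertain, because the model Gm4353 matches it at 99.61% over 1547 bases and held 291 counts.

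Among the FG proteins of the channel, Nup98 and Nup54 rose in both genotypes on the TMM scale. NUP98 works in mRNA export with RAE1, and its gene also encodes NUP96 of the Y complex. Nup98 had 959, 898 and 1041 CPM in cKO MII, 215, 328 and 443 CPM in cKO GV, 668, 819.9 and 937 CPM in control MII, and 454, 243 and 291 CPM in control GV oocytes. The stages did not overlap in either genotype, and the log2 fold change was 1.72 (SE 0.23, adjusted p = 4.83e-06) in cKO and 1.44 (SE 0.23, adjusted p = 2.95e-05) in control oocytes, against -0.55 and -0.20 on the spike-in scale. Nup54 had 287, 306 and 276 CPM in cKO MII, 83.05, 122 and 196 CPM in cKO GV, 322, 312 and 312 CPM in control MII, and 148, 104 and 159 CPM in control GV oocytes. It rose by 1.28 (SE 0.23) in cKO and 1.35 (SE 0.23) in control oocytes, against -0.95 and -0.41 on the spike-in scale, and a pseudogene, Gm15790, matches it at 98.01% over 1254 bases with 302 counts. Nup62, which forms the channel trimer with NUP54 and NUP58, stood at 0.01 (SE 0.27) in cKO and passed at 0.62 (SE 0.27, adjusted p = 0.0499) in control oocytes, where DESeq2 did not call it.

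On the cytoplasmic side, NUP88 and NUP214 form a subcomplex that helps mRNA export, and their mRNAs parted. Nup88 had 323, 380.2 and 419 CPM in cKO MII, 159, 214 and 292 CPM in cKO GV, 519.9, 348 and 407 CPM in control MII, and 212, 179 and 305 CPM in control GV oocytes. It rose by 0.92 (SE 0.24, adjusted p = 0.00296) in cKO and 1.03 (SE 0.24, adjusted p = 0.00112) in control oocytes on the TMM scale, against -1.37 and -0.81 on the spike-in scale. Nup214 had 139, 156 and 150.1 CPM in cKO MII, 272, 246 and 175 CPM in cKO GV, 115, 152 and 137 CPM in control MII, and 212, 245 and 251 CPM in control GV oocytes. It fell by 0.51 on the log2 scale (SE 0.20, adjusted p = 0.0316) in cKO and by 0.68 (SE 0.20, adjusted p = 0.00559) in control oocytes. Reads of Nup214 per read of Nup88 were 0.358-0.429 in cKO MII, 0.599-1.72 in cKO GV, 0.221-0.437 in control MII and 0.824-1.37 in control GV oocytes, without overlap of the stages. Nupl2, an export cofactor also named NUP42, was scarce (5.60-12 CPM at GV) and rose by 0.84 in cKO (adjusted p = 0.0420) and 1.39 in control oocytes (adjusted p = 0.00158) on the TMM scale, and stood at -0.39 in control oocytes on the spike-in scale. Its call in cKO oocytes was lost with the replicate number as a block, without the filter on low counts and in a fit of the cKO libraries alone, and the last also ended that of Nup214. Ranbp2, the large SUMO ligase of the filaments, rose in cKO oocytes (0.69, SE 0.22, adjusted p = 0.0118) and missed the threshold in control oocytes (0.42, SE 0.23, adjusted p = 0.108), and the table's 12 Ranbp2 pseudogene entries held 0 counts.

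In the membrane ring, Aaas fell and Ndc1 rose on the TMM scale, although NDC1 is the transmembrane protein that anchors ALADIN, the product of Aaas. On the spike-in scale all 4 tested members passed as lower, against 88% of all genes in cKO and 70.1% in control oocytes. Aaas had 38.3, 36.3 and 19.96 CPM in cKO MII, 81.5, 100 and 147 CPM in cKO GV, 72.5, 51.3 and 63 CPM in control MII, and 115, 111 and 126 CPM in control GV oocytes. Its log2 fold change was -1.65 (SE 0.25, adjusted p = 1.77e-05) in cKO and -0.76 (SE 0.24, adjusted p = 0.00987) in control oocytes. Ndc1 rose by 0.64 (SE 0.19, adjusted p = 0.00820) in cKO and by 0.76 (SE 0.19, adjusted p = 0.00219) in control oocytes on the TMM scale, and its call in cKO oocytes was lost without the filter on low counts (0.57, adjusted p = 0.0567). Reads of Aaas per read of Ndc1 were 0.412, 0.451 and 0.264 in cKO MII, 1.63, 1.71 and 2.14 in cKO GV, 0.842, 0.607 and 0.541 in control MII, and 1.93, 1.96 and 1.79 in control GV oocytes. The 4 groups fell into 3 levels, GV alike in both genotypes, control MII below them and cKO MII lowest, with no overlap between levels. This pair was chosen after its values were seen, and the nearest MII ratios of the genotypes were 0.451 and 0.541. Aaas itself passed neither between the genotypes at MII (adjusted p = 0.530) nor in the interaction (adjusted p = 0.875) in edgeR's quasi-likelihood test. Nup210 fell in cKO oocytes (-1.64, SE 0.53, adjusted p = 0.0121) on 2 to 19 counts a library, and Pom121, whose exons share 665 bases with Nsun5 on the other strand (162 counts), did not pass in either genotype.

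In the nuclear basket, Tpr and Nup153 rose on the TMM scale, and Nup50 did not pass. TPR forms the basket filaments, and its mRNA stood at 317, 296 and 346 CPM in cKO MII, 162, 159 and 159 CPM in cKO GV, 294, 315 and 295 CPM in control MII, and 169, 130.1 and 139.9 CPM in control GV oocytes. The change was 1.14 (SE 0.17, adjusted p = 1.05e-05) in cKO and 1.19 (SE 0.17, adjusted p = 6.75e-06) in control oocytes, against -1.24 and -0.53 on the spike-in scale. Nup153, which docks the basket to the ring, had 182, 171 and 216 CPM in cKO MII, 85.2, 84.3 and 80.98 CPM in cKO GV, 150.2, 150 and 151 CPM in control MII, and 84.2, 74.9 and 77.7 CPM in control GV oocytes. These libraries agreed closely within groups, and the change was 1.33 (SE 0.18) in cKO and 1.08 (SE 0.18) in control oocytes, against -1.07 and -0.66 on the spike-in scale. Nup50, which speeds the release of import cargo, was at -0.04 (SE 0.17) in cKO and -0.01 (SE 0.17) in control oocytes.

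**Figure D3:**
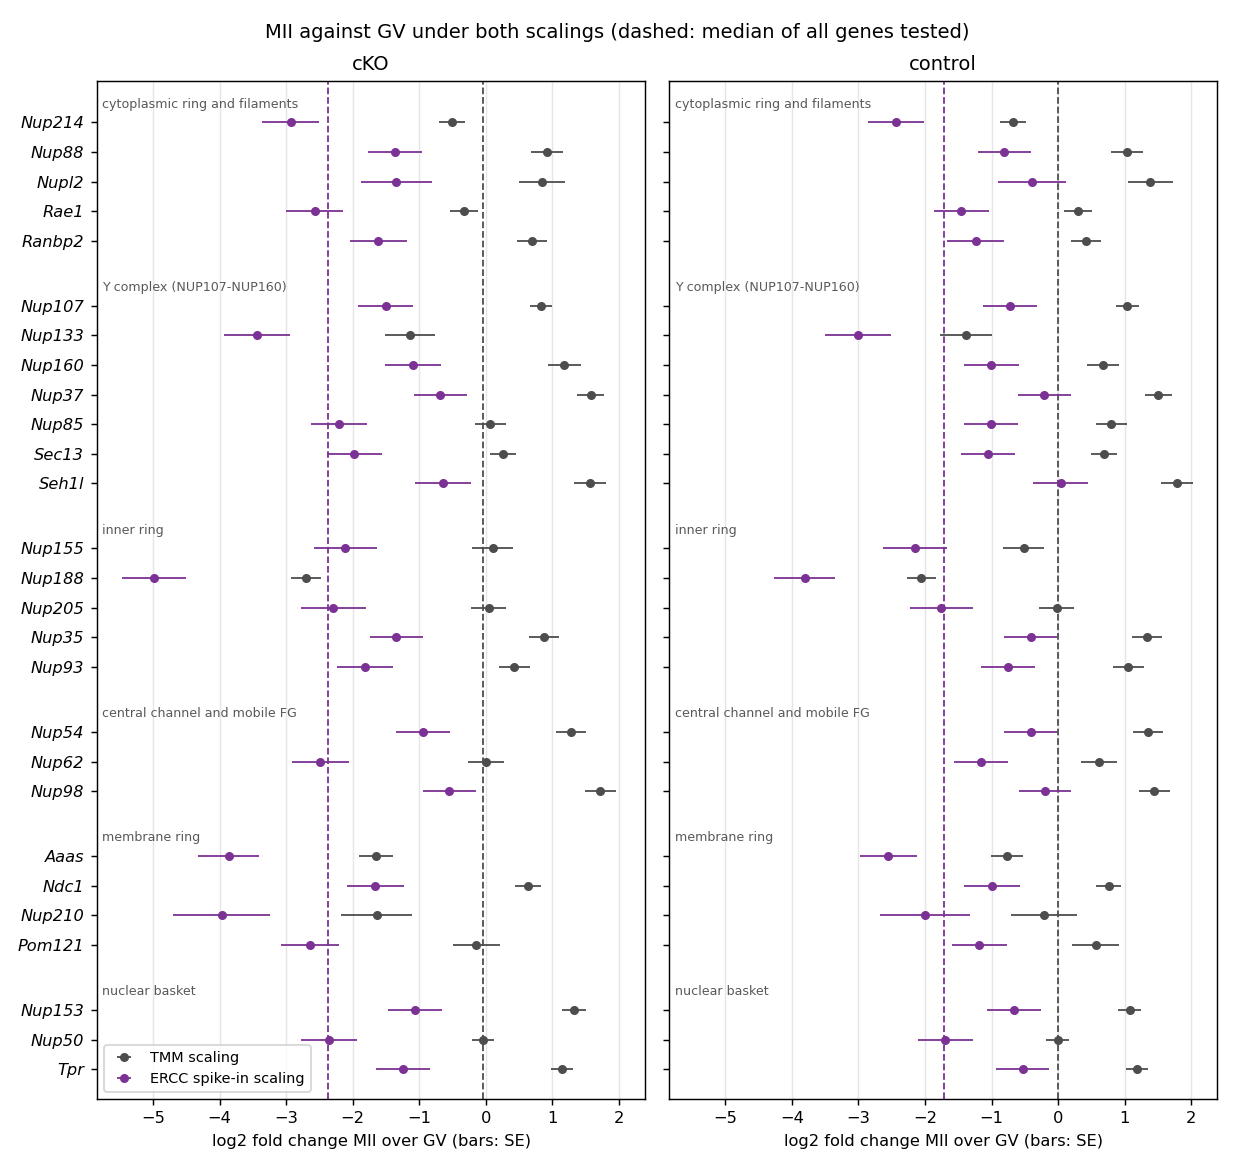
Log2 fold change of MII over GV oocytes for the tested nucleoporins on the TMM scale (grey) and on the ERCC spike-in scale (purple), in cKO (left) and control oocytes (right), with SE bars and dashed lines at the median of all genes. The dashed lines stand at -0.04 and -2.37 in cKO and at 0.01 and -1.72 in control oocytes, the direction of each rising member but Seh1l in control oocytes flips between the scales, and Nup188 lies left of the dashed line on both.

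On the spike-in scale 0 of 27 members passed as higher at MII, against 0.801% of all genes in cKO and 0.56% in control oocytes. As lower passed 24 of 27 in cKO and 16 of 27 in control oocytes, against 88% and 70.1% of all genes, so the members' count was near that background in cKO and below it in control oocytes. The share of calls that were higher was thus 72.2% in cKO and 80% in control oocytes on the TMM scale and 0% on the spike-in scale in both. Nup188, Aaas, Nup133 and Nup214 lay below the median of all genes on both scales and in both genotypes. The 12 members that rose in both genotypes all lay above that median on both scales. Both sets were picked by their calls on the TMM scale, so their place against the median there was set by the pick. A change of scale moves all genes by similar amounts, so the spike-in scale gives no separate support.

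Some calls rested on single libraries, each given here with edgeR's adjusted p without the library named. In control oocytes Nup160 missed the threshold without GV library 2 (0.0770), MII library 2 (0.0849) or MII library 3 (0.0900), Aaas without MII library 2 (0.0551) and Nup85 without MII library 1 (0.0602). In cKO oocytes Nup214 missed it without GV library 1 (0.151) or 2 (0.0908) or MII library 1 (0.113) or 2 (0.0621), and Nup210 without MII library 2 (0.0732). Nupl2 in cKO oocytes missed it when any one of 7 libraries was left out (0.0512-0.197), and so did Nup62 in control oocytes (7 libraries, up to 0.286). All kept their sign, and no other member lost its call in these fits.

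Genes that work with the pore had calls in both directions between the stages on the TMM scale, as did genes in general (29.5% higher and 34% lower in cKO, 30.1% higher and 33.8% lower in control oocytes). Of 11 pore-associated genes outside the naming rule, 5 rose (45.5%) and 1 fell (9.09%) in cKO oocytes (median 0.54), and 7 rose (63.6%) and 1 fell (9.09%) in control oocytes (median 0.65). Ahctf1 encodes ELYS, which seeds pores on chromatin, and rose by 1.37 (SE 0.22) in cKO and 1.39 (SE 0.22) in control oocytes on the TMM scale. Eny2, of the TREX-2 export complex, rose by 1.42 in cKO and 1.06 in control oocytes, and Cetn2, a centrin found in the same complex, fell by 1.44 in cKO and by 1.78 in control oocytes on the log2 scale. Of 30 tested genes of the Ran cycle and the transport receptors, 7 rose (23.3%) and 10 fell (33.3%) in cKO (median -0.29) and 7 rose (23.3%) and 9 fell (30%) in control oocytes (median -0.27), shares close to or below those of all genes. Ranbp3, a cofactor of export, had log2 fold changes of -3.48 in cKO and -3.08 in control oocytes. Kpna2, an importin alpha, averaged 239.9 ± 12.3 CPM in cKO MII and 1026 ± 465 CPM in cKO GV oocytes, and 192 ± 51.1 CPM in control MII and 988 ± 139 CPM in control GV oocytes (SD, n = 3 each). Of 19 tested lamina and nuclear membrane genes, 6 rose and 6 fell in cKO oocytes (31.6% each way), and 5 rose and 5 fell in control oocytes (26.3% each way). Lmna, the gene of lamins A and C, had log2 fold changes of -2.05 (SE 0.27) in cKO and -2.06 (SE 0.26) in control oocytes, and Lbr, the lamin B receptor, had 1.34 in cKO and 0.98 in control oocytes. Of 20 tested genes of entry into meiotic M phase, 5 rose (25%) and 7 fell (35%) in cKO and 5 rose (25%) and 6 fell (30%) in control oocytes. Cdk1, the kinase that starts envelope breakdown, averaged 5.53 ± 4.17 CPM in cKO MII and 171 ± 12.8 CPM in cKO GV oocytes, and 3.76 ± 1.23 CPM in control MII and 188 ± 11.7 CPM in control GV oocytes (SD, n = 3 each). On the spike-in scale 0 genes of these 4 lists passed as higher at MII, and all of them lay below 0 except Ccnb3, a cyclin, in control oocytes (0.53, SE 0.64), so the directions flip: Ahctf1 was at -1.02 in cKO and -0.43 in control oocytes, Eny2 at -0.99 and -0.72, and Lbr at -0.94 and -0.71. The median of the 11 pore-associated genes was then -2.02 in cKO and -1.05 in control oocytes, above that of all genes, and that of the Ran cycle and transport genes was -2.70 and -1.98, below it.

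At the GV stage, the loss of VPS34 went with no called change in a nucleoporin mRNA. Of 27 tested members 0 passed (0.0825% of all genes did), 0 had an unadjusted p under 0.05 by edgeR's quasi-likelihood test (2.2% of all genes), and DESeq2 also called 0. Without cKO GV library 3, 3 members stood under an unadjusted p of 0.05 by edgeR's quasi-likelihood test, 2 higher and 1 lower, against 11.4% of all genes. The median log2 fold change, cKO against control, was 0.01, the same as over all genes, and on the spike-in scale 0.43, against 0.46 over all genes. It ranged between -0.21 for Seh1l and 0.65 for Nup210, with Aaas at -0.16, Ndc1 at -0.13, Nup62 at 0.30 and Nup133 at 0.47 (SE 0.23). The last was the one well-counted member whose groups did not overlap, at 27.1, 29.8 and 44.7 CPM in cKO GV and 24.7, 24.3 and 21.3 CPM in control GV oocytes. Nup210 also did not overlap, at 4.67, 4.96 and 6.33 CPM in cKO GV and 1.69, 3.69 and 4.05 CPM in control GV oocytes. These are 2 of 27 members, against 4.96% of all genes not overlapping in this direction.

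Many members shared the same high and low libraries among cKO GV oocytes. For 20 of the 27 members (74.1%) library 1 was the lowest and library 3 the highest of the 3, an order that 35.1% of all genes tested at GV had, as with Nup35 (213, 307 and 481 CPM) and Seh1l (27.7, 48.2 and 58.7 CPM). The share of counts in a ribosomal RNA gene model ran the other way, at 11.1% in library 1, 4.45% in library 2 and 1.17% in library 3 of cKO GV oocytes, against 2.80%, 6.57% and 3.83% in control GV oocytes. The reverse order, with library 1 highest and library 3 lowest, was found in 5 members (18.5%, against 22.9% of all genes). They were Pom121 (106, 96.98 and 31.7 CPM), Nup62 (144, 95.05 and 73.98 CPM), Nup214 (272, 246 and 175 CPM) and, with small differences, Tpr (162, 159 and 159 CPM) and Nup153 (85.2, 84.3 and 80.98 CPM). In control GV oocytes the most frequent order had library 2 lowest and library 1 highest, in 11 of 27 members (40.7%) and 26% of all genes. The part of the ribosomal RNA share in these values was not tested.

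**Figure D4:**
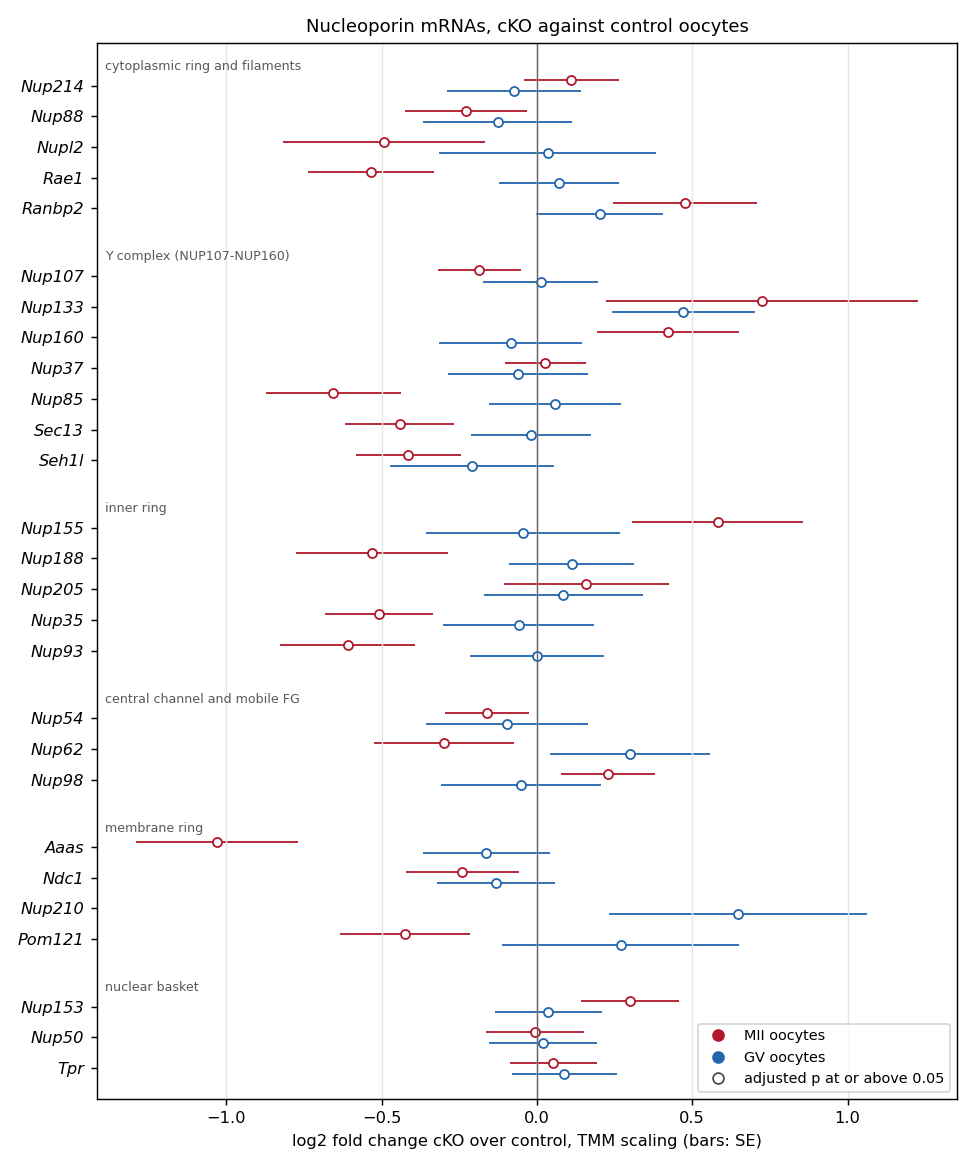
Log2 fold change of cKO over control oocytes on the TMM scale for the tested nucleoporins, MII in red and GV in blue, with SE bars; open symbols did not pass the adjusted p of 0.05, which holds for all of them. GV values lie between -0.21 and 0.65, and MII values between -1.03 for Aaas and 0.72 for Nup133. On the spike-in scale all 27 GV values lie above 0, but so does the median of all genes, with 11 members above that median and 16 below it.

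At MII, 0 of 26 tested members passed, and 0% of all genes did, in edgeR's adjusted quasi-likelihood test. DESeq2 also called 0 members. At an unadjusted p under 0.05 by edgeR's quasi-likelihood test stood 7 members, all lower in cKO MII oocytes, where 5.45% of all genes stood in this direction and 9.01% in either. They were Aaas, Nup85, Nup35, Nup93, Rae1, Sec13 and Seh1l, with adjusted p between 0.530 and 0.531. The groups did not overlap for 9 members lower and 3 members higher in cKO MII oocytes, against 7.57% and 8.19% of all genes. The members' median log2 fold change was -0.21, against 0.02 over all genes, and on the spike-in scale -0.36, against -0.15 over all genes.

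Aaas stood lowest, at 38.3, 36.3 and 19.96 CPM in cKO MII and 72.5, 51.3 and 63 CPM in control MII oocytes. The groups were apart, with a log2 fold change of -1.03 (SE 0.26, adjusted p = 0.530). ALADIN, its product, is mutated in human Allgrove syndrome, and mouse oocytes without it have defects of the meiotic spindle. Nup85, whose protein sits in the Y complex with SEH1 and SEC13, had 180.1, 184 and 142 CPM in cKO MII and 337, 206 and 227 CPM in control MII oocytes (-0.66, SE 0.22). Sec13, which also coats COPII vesicles, had 237, 287 and 183 CPM in cKO MII and 336, 294 and 301 CPM in control MII oocytes (-0.44, SE 0.18). Seh1l had 135, 123 and 101 CPM in cKO MII and 164, 140.1 and 159 CPM in control MII oocytes (-0.41, SE 0.17). Nup85, Sec13 and Seh1l thus had adjacent groups without overlap, and in GV oocytes their values were 0.06, -0.02 and -0.21.

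The inner ring members Nup35 and Nup93 and the export factor Rae1 completed the 7. Nup93 had 176, 169 and 119 CPM in cKO MII and 289.8, 197 and 196 CPM in control MII oocytes (-0.61, SE 0.22). Nup35 stood at -0.51 (SE 0.17) without overlap. Rae1, which is also a spindle assembly factor, had 93.1, 137 and 80.9 CPM in cKO MII and 156, 136 and 145 CPM in control MII oocytes (-0.54, SE 0.20), and here the groups overlapped. The highest values belonged to Nup133 (0.72, SE 0.50), Nup155 (0.58, SE 0.28) and Ranbp2 (0.48, SE 0.23), with unadjusted p between 0.0575 and 0.178 by edgeR's quasi-likelihood test. Nup155 was the one of these whose groups did not overlap, at 24.9, 23 and 20.3 CPM in cKO MII and 9.54, 18.7 and 16.6 CPM in control MII oocytes.

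How many members stood there depended on single libraries. For all 7 members control MII library 1 was the highest of its group and cKO MII library 3 the lowest of its group. Picking members by a low p with cKO below control favours this order. Among all 26 tested members, control MII library 1 was highest for 12 and lowest for 11, and cKO MII library 3 was lowest for 15 and highest for 8. The shares over all genes were not computed. These 2 libraries had the largest spike-in shares of their groups, 39.9% in cKO MII library 3 and 35.1% in control MII library 1. Without cKO MII library 3, and likewise without control MII library 1, 3 of the 26 members stood under an unadjusted p of 0.05 by edgeR's quasi-likelihood test (5.22% and 5.89% of all genes). Without control MII library 2 it was 12 (15.1% of all genes), of which 8 were lower (8.18% of all genes). On the spike-in scale it was 4 (4.12% of all genes). Without the filter on low counts, 2 members passed after adjustment by edgeR's quasi-likelihood test (0.425% of all genes), Aaas (-1.06, adjusted p = 0.00428) and Nup85 (-0.68, adjusted p = 0.0465). Cumulus markers also varied here, at 1783, 1182 and 939 CPM in cKO MII and 1554, 1333 and 1220 CPM in control MII oocytes. The part of spike-in share and of cumulus RNA in the member values was not tested.

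**Figure D5:**
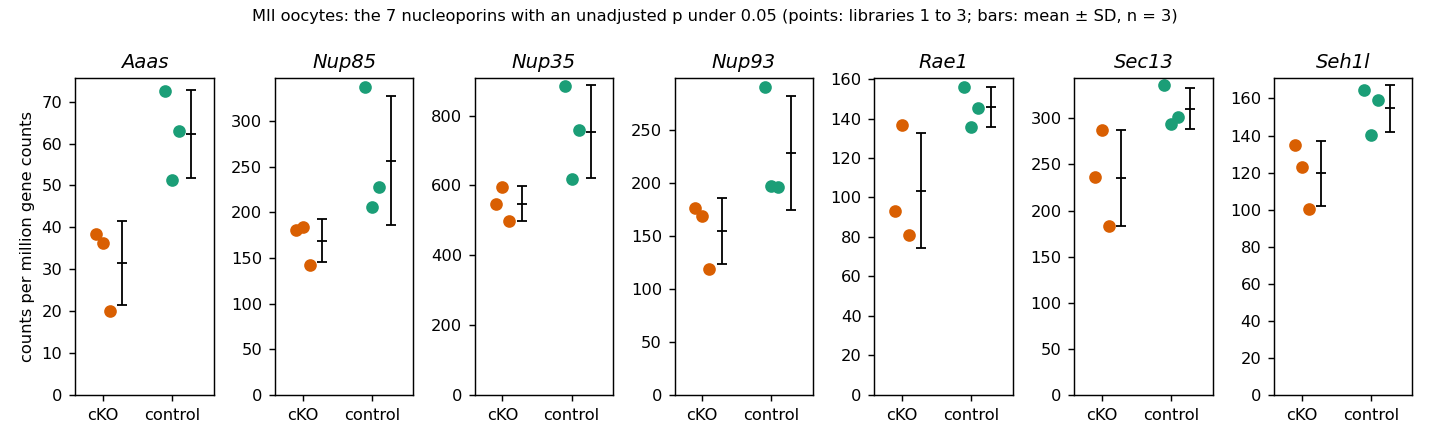
CPM of the 7 nucleoporins with an unadjusted p under 0.05 at MII in cKO libraries (left of each panel, orange) and control libraries (right, green), libraries 1 to 3 in order, with mean ± SD bars (n = 3). In each panel control library 1 is the highest of its group and cKO library 3 the lowest of its group, an order that picking members by p favours. No member passed the adjusted threshold.

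Whether maturation changed nucleoporin mRNAs by different amounts in the genotypes was tested as the difference of both changes, cKO minus control. Of 27 members 0 passed (0.00862% of all genes did), and DESeq2 called 0. At an unadjusted p under 0.05 by edgeR's quasi-likelihood test stood 4, all with a lower change in cKO oocytes, against 2.96% of all genes in this direction: Aaas (-0.89, SE 0.35), Nup85 (-0.73, SE 0.33), Nup188 (-0.65, SE 0.31) and Rae1 (-0.62, SE 0.30), each with an adjusted p of 0.875. This count was 0 without control MII library 1 (1.85% of all genes) and 7 without cKO GV library 1 (2.83% of all genes). The members that passed in control oocytes alone, Nup93, Sec13, Nup85 and Nup62, had differences of -0.63, -0.44, -0.73 and -0.61, and those that passed in cKO oocytes alone had 0.27 (Ranbp2) and -1.42 (Nup210, SE 0.73). At the other end stood Nup155 (0.62, SE 0.43), Nup160 (0.50, SE 0.34) and Nup98 (0.27, SE 0.32). None of these differences passed, so the genotypes were not shown to differ in the maturation of any nucleoporin mRNA. The median difference was -0.12, against -0.01 over all genes, and on the spike-in scale -0.68, against -0.61 over all genes. The stage and genotype comparisons share the same 12 libraries, so their values are not independent of each other.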

How the data were processed

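RNA was measured by Smart-seq2 in pools of 5 oocytes, and 12 libraries in 4 groups were used. The authors deposited raw whole-number counts for each gene symbol, made with fastp, HISAT2 and featureCounts on mm10, per the submitters' processing notes. Their versions, the annotation, the strand setting and the treatment of multiply mapped reads are not named in the labels or headers, so reads of near-identical or overlapping genes are uncertain. Column letters C and T were read as control and cKO, and 6 further columns of sample values were not used.

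All 55291 genes, without the 92 ERCC entries, were put through a filter on low counts before the fits. The main fits then tested 10911 genes at GV, 9677 at MII and 11607 for the stage and the interaction. Shares of all genes refer to the genes tested. edgeR 4.0.16 in R 4.3.3 (limma 3.58.1) gave quasi-likelihood tests with TMM scaling, its filter on low counts and Benjamini-Hochberg adjustment over all genes tested, with a threshold of 0.05. Genotype was compared within each stage on 6 libraries, and the stage and the interaction in 1 fit of 12. On simulated counts with a log2 change of 1, the test found 66% of 100 changed genes at GV, 58% at MII, 57% for the stage in each genotype and 15% for the interaction, and with a log2 change of 2 it found 99%, 98%, 97% (cKO), 99% (control) and 84%. The changed genes were drawn from well-counted genes only, and far fewer genes were changed than were called between the stages. These rates therefore do not carry over to scarce members or to the stage test as run. Total gene counts per library bound the precision, and CPM values carry no TMM factor. Levels per kb used exon unions of GENCODE M21, and near copies were sought with BLAST at 95% identity over 200 bases.

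The members and the gene lists were chosen with earlier results of these data known. Per-library values were given for members called in a comparison (at most 12 of smallest p), for the 3 highest and 3 lowest in each genotype comparison and the interaction, and for the most abundant of each role list, beside Pik3c3. Rae1, Sec13, Nup205 and the other members with values were named after these were seen, as were the ratios between members. Alternatives were DESeq2 1.42.0, ERCC totals as library sizes, no filter, a replicate block, other sets of libraries in the fit and leaving out each library in turn. The deviations of same-numbered libraries correlated at -0.226 to 0.211, so the numbers were not taken as pairs.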

Additional observations from a re-analysis of the deposited data

How the results depend on the processing

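At GV, and for the interaction, 0 members were called under each alternative run and without any 1 library. At MII the count was 0 except without the filter on low counts, where it was 2, and 0 without any 1 library. For MII against GV it was 16 to 19 in cKO and 18 to 21 in control oocytes over fits leaving out 1 library each, 18 and 19 with DESeq2, 17 and 19 without the filter, and 16 and 20 in fits of 1 genotype alone. With the replicate block the counts were 0 (GV), 0 (MII), 17 (cKO maturation), 19 (control maturation) and 0 (interaction), and the block ended the calls of Nupl2 in cKO and Nup62 in control oocytes. No library correlated best with its own number in another group.

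With ERCC totals as library sizes, log2 fold changes of MII against GV turned round in cKO oocytes for Nup37 (-0.68), Nup153 (-1.07), Nup98 (-0.55), Tpr (-1.24), Seh1l (-0.64), Nup54 (-0.95), Nup107 (-1.50), Nup160 (-1.09), Nup88 (-1.37) and Nup35 (-1.35). In control oocytes they did so for Nup37 (-0.20), Tpr (-0.53), Nup98 (-0.20), Nup153 (-0.66), Nup107 (-0.72), Nup54 (-0.41), Nup35 (-0.41), Nup93 (-0.76), Nup88 (-0.81) and Nupl2 (-0.39), and Seh1l lost its call at 0.04. The other members called higher also turned round. These were Ndc1 (-1.658), Ranbp2 (-1.617) and Nupl2 (-1.345) in cKO oocytes. In control oocytes they were Ndc1 (-0.9952), Nup160 (-1.002), Nup62 (-1.158), Nup85 (-1.012) and Sec13 (-1.051). The spike-in totals set these values by construction, and how evenly spike-in was added to the libraries was not tested. The MII count at an unadjusted p under 0.05, an alternative chosen after seeing the data, ranged between 3 and 12 over fits leaving out 1 library each.

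With 3 libraries a group, an exact permutation test of a single value cannot go below p = 0.1. Changes of 1 on the log2 scale were often missed in simulated data, so a member without a call is not shown to be alike in the groups. Nup210, Nupl2 and Nup133 rest on few reads.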
